A study of Homo sapiens with 6 samples.

Results

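The genes described here are 44 enzymes that add methyl groups to histone lysines or take them off: 26 histone lysine methyltransferases and 18 histone lysine demethylases. They were chosen by name from the families of these enzymes, with NSD2 itself left out, and were grouped by the lysine each is best known for. All 44 were among the 17579 genes of the deposited gene table, and all 44 were among the 13138 that passed the filter on low counts. The cells were LP-1, an established multiple myeloma line that carries the t(4;14) translocation, which drives NSD2 from an immunoglobulin enhancer. One group of 3 libraries came from LP-1 cells infected with virus carrying a guide RNA that targets AURKA, which encodes Aurora A, a kinase of mitosis. The control group of 3 libraries came from LP-1 cells infected with virus carrying a guide with no target, and the labels give 10% FBS as the culture supplement for both groups. The series title names phosphorylation of NSD2 by Aurora A, so the comparison bears on whether transcripts of the other lysine methylation enzymes differed when AURKA was targeted. The labels do not say whether the infected cells were a pool or a clone, nor when they were harvested. Nor do they call the replicates separate cultures. The p-values therefore rest on the spread among these 6 libraries, which may be technical.

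Histone lysine methylation is written by enzymes with a SET domain, and by DOT1L, which has none. It is erased by flavin-dependent oxidases, the KDM1 pair, and by enzymes with a Jumonji (JmjC) domain. Methylation of H3K4 marks promoters and enhancers in use, H3K36 and H3K79 methylation marks transcribed gene bodies, and H3K9 and H3K27 methylation marks silenced chromatin. In myeloma with t(4;14), the excess of NSD2 is known for spreading dimethylated H3K36 over the genome at the expense of H3K27 methylation. Most of the enzymes described here, though not all, act on the same histone as NSD2. RNA levels do not measure enzyme activity or the methyl marks, neither of which was measured in these libraries.

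The libraries held between 17724174 and 18523594 expected counts, the read numbers that the authors estimated per gene. AURKA itself was at 192 ± 2.85 CPM (counts scaled to library size, SD, n = 3) in the control libraries and at 115 ± 3.86 CPM (SD, n = 3) in the AURKA-guide libraries. It fell by 0.74 in log2 units (SE 0.0488, adjusted p = 1.55e-06, edgeR quasi-likelihood test with Benjamini-Hochberg adjustment), so its RNA remained at a fold of 0.599. A guide changes DNA, and the AURKA RNA level does not measure the share of cells with an edited gene. The labels call the cells B lymphoblasts, whereas most plasma cell markers looked for were high. The summed level of 8 plasma cell markers, SDC1, TNFRSF17, IRF4, PRDM1, XBP1, MZB1, CD38 and SLAMF7, was 3510 to 3551 CPM in the control and 3421 to 3454 CPM in the AURKA-guide libraries. XBP1 made the greatest part of that sum, at 1440 to 1530 CPM, while SLAMF7 was near absent, at 0.487 to 1.18 CPM. CD38 rose (log2 fold change 0.38, adjusted p = 0.000416, edgeR quasi-likelihood test), and the other 7 were below zero without passing the test. The B cell marker MS4A1 was listed at 0 in all 6 libraries, and the 3 B cell markers found in the table summed to 0.709 to 1.19 CPM. Markers of T and NK cells summed to at most 0.378 CPM, myeloid markers to 5.15 to 6.07 CPM and stromal markers to 4.75 to 5.93 CPM. All these marker sums were scaled to library totals alone, unlike the CPM of single genes.

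Compared per length, as FPKM (fragments scaled to transcript length and library size), the 44 enzymes spanned a range from 2.36 to 46.2 in the mean of all 6 libraries. KDM1A, the H3K4 demethylase of the CoREST complex, was the highest. Its FPKM was 46.6, 45.9 and 49.98 in the control libraries and 43.6, 45.0 and 45.9 in the AURKA-guide libraries. EHMT2 (G9a, an H3K9 methyltransferase) followed at a mean of 39.8 FPKM. It was at 42.3, 40.9 and 37.7 FPKM in the control and at 40.8, 38.3 and 39.1 FPKM in the AURKA-guide libraries. The next was EZH2 (the main catalytic subunit of Polycomb repressive complex 2, PRC2), at a mean of 34.7 FPKM. The spread of KDM1A over the libraries, 43.6 to 49.98 FPKM, did not overlap that of EHMT2, 37.7 to 42.3 FPKM, and the ranges of EHMT2 and EZH2 also stood apart, EZH2 being at 32.1 to 36.8 FPKM. At the low end were KDM8 at 2.36 FPKM, KDM7A at 2.39 FPKM and SETDB2 at 2.56 FPKM, whose ranges overlapped. NSD2, at a mean of 50.7 FPKM, was above every one of the 44.

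**Figure D1:**
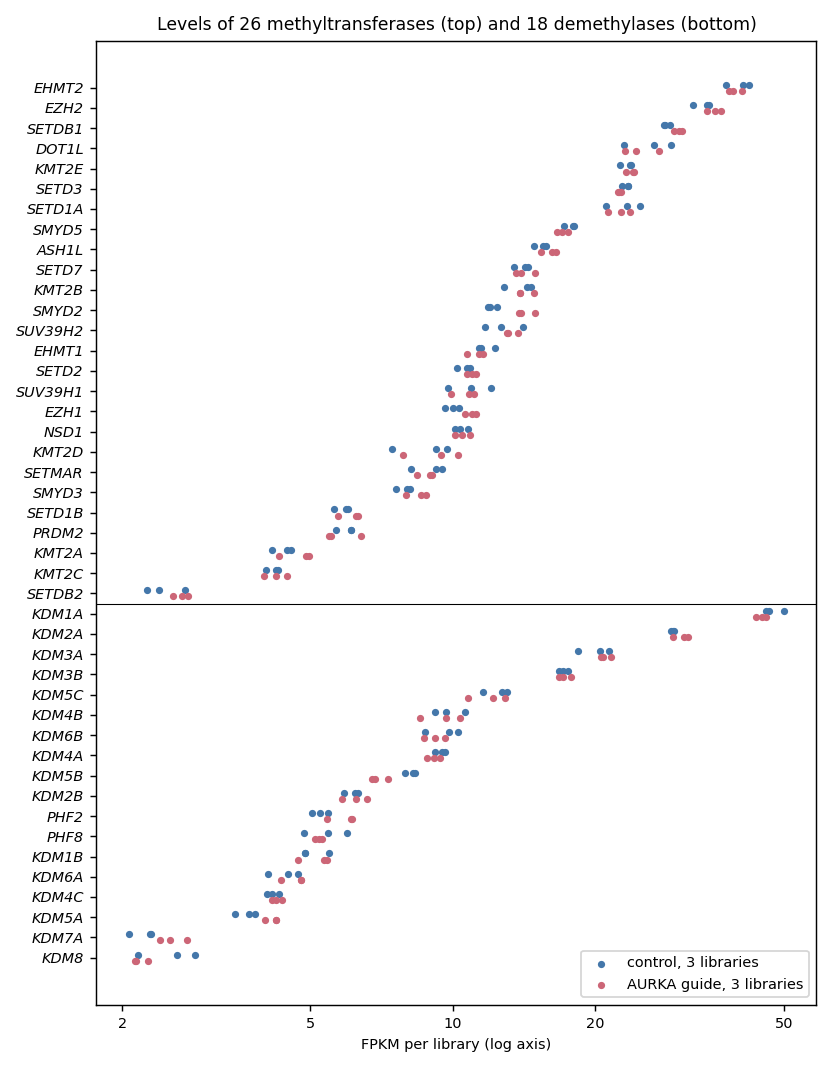
FPKM of the 44 enzymes in each library (horizontal log axis), the 26 methyltransferases above the line and the 18 demethylases below it, with 1 point per library, blue for control and red for AURKA guide. KDM1A, EHMT2 and EZH2 lie highest, and KDM8, KDM7A and SETDB2 lowest.

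Of most paralog pairs, the same enzyme was the higher in all 6 libraries. EZH2 was 3.08 to 3.61 times its paralog EZH1 in FPKM. EHMT2 was 3.30 to 3.60 times EHMT1, its partner in the same complex, and SETDB1 was 10.6 to 12.4 times SETDB2. KDM1A was 8.44 to 9.59 times KDM1B, and KDM2A, an H3K36 demethylase, was 4.65 to 5.01 times KDM2B. Among the H3K4 methyltransferases of the COMPASS type, SETD1A was 3.60 to 4.13 times SETD1B, KMT2B was 2.79 to 3.28 times KMT2A, and KMT2D was 1.74 to 2.42 times KMT2C. The H3K9 methyltransferases SUV39H1 and SUV39H2 had no fixed order, with a ratio between 0.695 and 1.03. The same held for the demethylases KDM4B and KDM4A, whose ratio was 0.965 to 1.14. The methyltransferases summed to 376 to 398 FPKM and the demethylases to 195 to 205 FPKM, a ratio of 1.85 to 1.98, and neither sum separated the groups.

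In the comparison of the AURKA guide with the control, 1 of the 44 enzymes passed the test. KDM5B, an H3K4 demethylase, was lower with the AURKA guide. Over all genes tested, 2.03% were called in either direction, so 1 call among 44 enzymes (2.27%) is near the background. None of the 44 was called higher, against 0.959% of all genes, and the share of genes called lower was 1.07%. At an unadjusted p below 0.05, 5 of the 44 passed, which is 11.4% against 16.1% of all genes. These were 4 of the 44 higher, a larger share than the 7.54% of all genes, and 1 lower, a smaller share than 8.58%. In 11 of the 44 (25%) the CPM of the groups did not overlap, against 20.8% of all genes. With the AURKA guide 8 of the 44 were higher, a larger share than the 10.5% of all genes. Only 3 were lower, a smaller share than the 10.2% of all genes. These shares were not tested. The differences were small. The median log2 fold change was 0.03 for the 26 methyltransferases, of which 16 were above zero, and 0.0035 for the 18 demethylases, of which 10 were above zero. The median size of the change, sign aside, was 0.059 for the 44 and 0.089 for all genes.

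For the 43 enzymes without a call, every 95% confidence interval of the log2 fold change lay between -0.41 and 0.38. Taken gene by gene, these intervals reach a 1.33-fold decrease or a 1.299-fold increase at the outer limits. They are not a joint interval for the 43, and they rest on the spread among these libraries. For 34 of these 43, the interval lay within 0.25 on either side of zero.

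**Figure D2:**
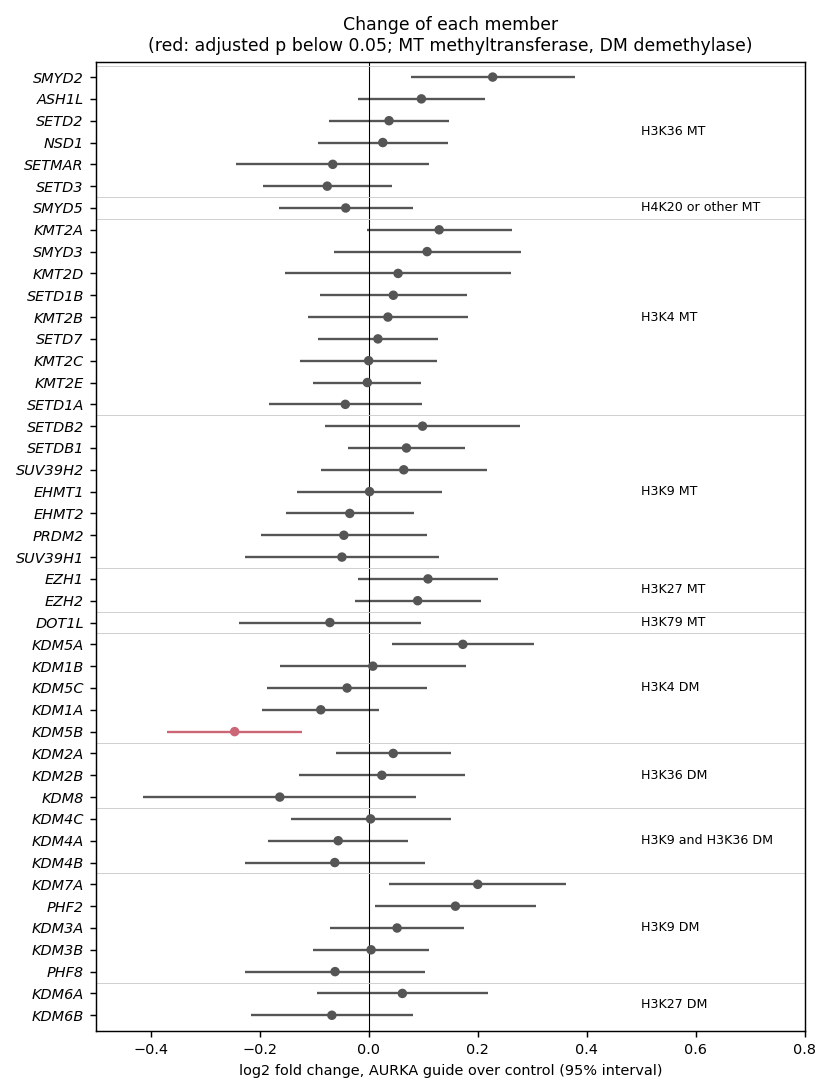
log2 fold change (AURKA guide over control) of the 44 enzymes by target lysine, with 95% confidence intervals from the edgeR quasi-likelihood fit. The interval of KDM5B lies below zero and is the one drawn in red, for an adjusted p below 0.05; 4 intervals, of SMYD2, KDM5A, KDM7A and PHF2, lie above zero without passing.

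KDM5B (gene ID 10765) removes methyl groups from di- and trimethylated H3K4. Its level was 54.7, 53.0 and 54.2 CPM in the control libraries and 44.9, 44.3 and 47.4 CPM in the AURKA-guide libraries. All 3 AURKA-guide libraries were below all 3 controls, with means of 45.5 ± 1.64 CPM (SD, n = 3) and 54.0 ± 0.876 CPM (SD, n = 3). KDM5B fell by 0.25 in log2 units (SE 0.0580, 95% confidence interval -0.37 to -0.12, adjusted p = 0.0416, edgeR quasi-likelihood test), a fold of 0.843. The call depended on single libraries. The adjusted p was 0.220 without control replicate 1, 0.153 without AURKA-guide replicate 1, 0.233 without replicate 2 and 0.114 without replicate 3 of the AURKA guide. It was 0.0359 and 0.00841 without control replicates 2 and 3. It was 0.0531 with libraries scaled to their totals alone, and 0.146 with limma on log2(FPKM + 1). In all of these settings KDM5B was lower, with a log2 fold change from -0.28 to -0.21. The expected counts of KDM5B were not whole. Division among its own transcripts alone would give a whole sum, so the authors' estimate did not assign part of its reads wholly to this gene.

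Neither of the other KDM5 enzymes passed the test. KDM5A, with the same activity, was at 42.1, 38.6 and 40.7 CPM in the control and at 46.4, 44.1 and 46.2 CPM in the AURKA-guide libraries. The groups did not overlap, KDM5A being higher with the AURKA guide, but the difference did not pass the test (log2 fold change 0.17, SE 0.0612, adjusted p = 0.187, edgeR quasi-likelihood test). KDM5C, the third, was at 74.9, 75.4 and 67.3 CPM in the control and at 75.8, 64.4 and 71.4 CPM in the AURKA-guide libraries, and the groups overlapped. Its log2 fold change was -0.04, on the same side of zero as that of KDM5B (adjusted p = 0.810, edgeR quasi-likelihood test). Per length, the ratio of KDM5A to KDM5B was 0.463, 0.436 and 0.446 in the control and 0.618, 0.593 and 0.581 in the AURKA-guide libraries. This ratio was picked after its values were seen and was not tested. KDM5B made up 32.5% to 35.3% of the summed FPKM of KDM5A, KDM5B and KDM5C in the control and 28.5% to 31.3% in the AURKA-guide libraries.

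The promoters of KDM5B and KDM5A are shown because these paralogs stood on opposite sides of zero. Each is the 250 bases before the annotated start in the RefSeq table of GRCh38.p14, 5′ to 3′ on the gene's strand, with the GC box GGGCGG, or its reverse complement CCGCCC, in capitals. KDM5B lies at chr1:202808422-202808671 and KDM5A at chr12:389321-389570, both on the minus strand, and these positions belong to that build and not to the authors' hg19.
KDM5B: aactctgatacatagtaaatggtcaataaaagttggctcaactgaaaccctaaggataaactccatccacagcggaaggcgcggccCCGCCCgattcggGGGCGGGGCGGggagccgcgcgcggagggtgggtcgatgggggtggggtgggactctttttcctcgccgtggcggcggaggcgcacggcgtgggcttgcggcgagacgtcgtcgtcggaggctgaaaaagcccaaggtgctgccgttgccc
KDM5A: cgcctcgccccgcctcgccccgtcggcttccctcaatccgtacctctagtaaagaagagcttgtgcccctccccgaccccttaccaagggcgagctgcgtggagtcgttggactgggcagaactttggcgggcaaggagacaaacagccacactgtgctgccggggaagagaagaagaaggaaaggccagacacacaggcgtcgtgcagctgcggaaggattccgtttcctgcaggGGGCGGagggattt
The KDM5B sequence held 3 matches to the GC box and the KDM5A sequence 1. Their GC content was 64.0% and 62.0%, both below the median of 64.8% for the promoters of all genes tested. A match is a run of letters and not a measured site.

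Among the 42 of the 44 enzymes with an entry in that table, all but DOT1L and SETD1B, the median promoter GC content was 66.6%. It was 64.8% for the promoters of all genes tested and 58.0% for all promoters of the table. On either strand, the GC box GGGCGG was in 31 of 42 (73.8%), against 66.5% of the 10661 tested genes' promoters. The E-box CACGTG, a motif of MYC and other factors, was in 7 of 42 (16.7%, against 8.92%). The CCAAT box was in 10 of 42 (23.8%, against 35.4%), the ETS-type motif CCGGAAG in 4 of 42 (9.52%, against 15.96%), and the TATA motif TATAAA in 0 of 42, against 5.45%. None of these motifs contains another, and the shares are descriptions without a test.

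The H3K4 demethylases of the other kind, KDM1A and KDM1B, use flavin and act on mono- and dimethylated H3K4. KDM1A was at 148, 147 and 158 CPM in the control and at 138, 143 and 145 CPM in the AURKA-guide libraries. Its groups did not overlap, but the difference did not pass the test (log2 fold change -0.09, SE 0.0502, adjusted p = 0.406, edgeR quasi-likelihood test). KDM1B had a log2 fold change of 0.01 and overlapping groups. The 5 H3K4 demethylases summed to 75.2 to 79.04 FPKM in the control and 71.8 to 75.0 FPKM in the AURKA-guide libraries, and these ranges did not overlap. KDM5B and KDM1A, already seen to separate, are part of this sum. Of the 11 sums by target lysine, this one and that of the H3K27 methyltransferases separated the groups, and the other 9 overlapped. The H3K36 methyltransferases, for example, summed to 79.4 to 82.3 FPKM in the control and 82.0 to 83.6 FPKM in the AURKA-guide libraries. Among all genes, the groups of 20.8% did not overlap in CPM, so the share of sums that separated is near the background. The sums were not tested.

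**Figure D3:**
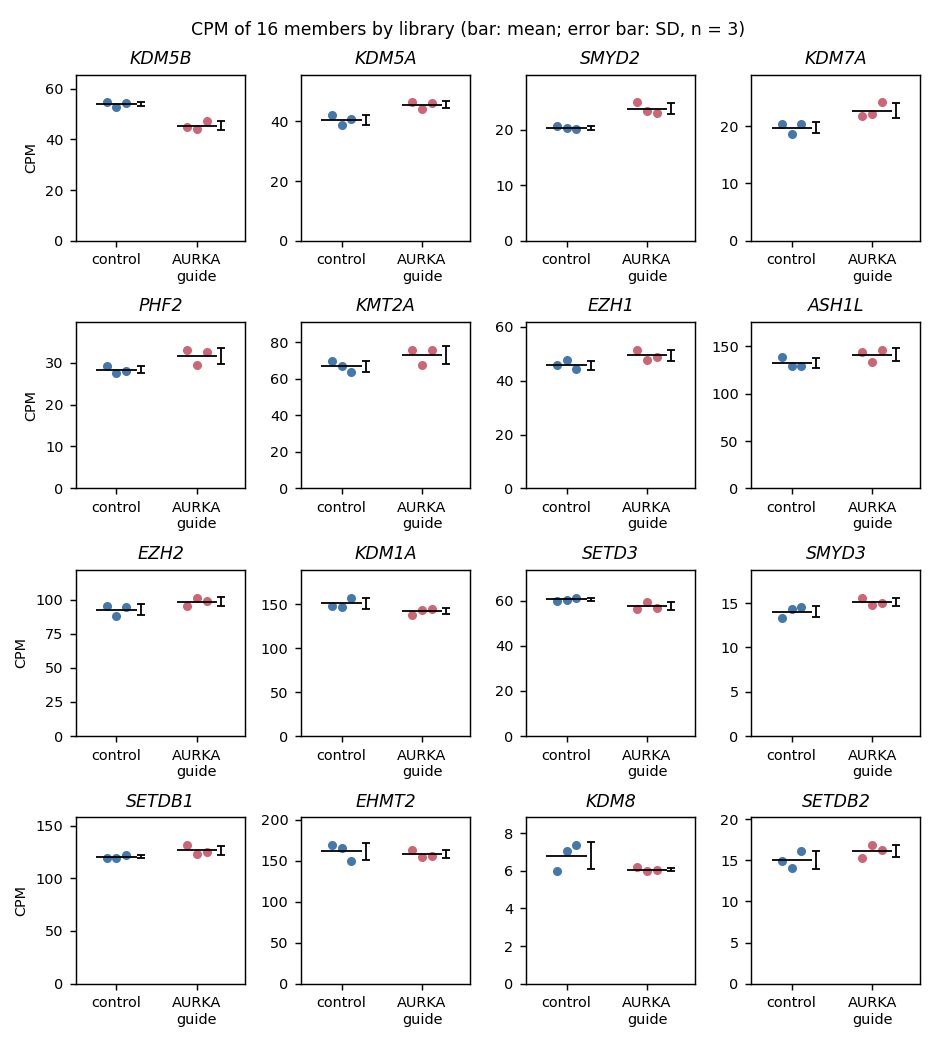
CPM per library (points; bar is the mean, error bar the SD, n = 3) of 16 of the enzymes in control and AURKA-guide libraries, each axis starting at 0. KDM5B, KDM1A and SETD3 are lower in all 3 AURKA-guide libraries, and SMYD2, KDM5A, KDM7A, PHF2, EZH1, EZH2, SMYD3 and SETDB1 are higher in all 3.

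Of the 6 H3K36 methyltransferases, none passed the test. SMYD2, which methylates H3K36 and also p53 and RB, was at 20.7, 20.2 and 20.03 CPM in the control and at 24.9, 23.4 and 23.0 CPM in the AURKA-guide libraries. It was higher in all 3, by 0.23 in log2 units (SE 0.0703, adjusted p = 0.130, edgeR quasi-likelihood test), the highest fold change among the 44 enzymes, and did not pass the test. SETD2, the enzyme that trimethylates H3K36 along transcribed genes, was at 92.3, 87.5 and 92.3 CPM in the control and at 93.3, 91.7 and 94.1 CPM in the AURKA-guide libraries, which overlapped (log2 fold change 0.04). NSD1, the closest relative of NSD2 in this set, was at 104 to 115 CPM in the control and 107 to 117 CPM in the AURKA-guide libraries. ASH1L, which dimethylates H3K36 at active developmental genes, was at 138, 129 and 129 CPM in the control and at 144, 133 and 146 CPM in the AURKA-guide libraries. Its groups overlapped (log2 fold change 0.10, SE 0.0543, adjusted p = 0.402, edgeR quasi-likelihood test). SETD3, now best known for methylating actin, was at 60.0, 60.4 and 61.4 CPM in the control and at 56.2, 59.5 and 56.7 CPM in the AURKA-guide libraries. It was lower in all 3 without passing the test (log2 fold change -0.08, adjusted p = 0.517, edgeR quasi-likelihood test). SETMAR, a fusion of a SET domain with a transposase, had overlapping groups.

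NSD2 did not differ beyond its spread, at 376 ± 7.62 CPM in the control and 370 ± 7.16 CPM in the AURKA-guide libraries (SD, n = 3, log2 fold change -0.02, adjusted p = 0.822, edgeR quasi-likelihood test). Its FPKM was 4.73 to 4.999 times that of NSD1, with overlapping groups. Its ratio to SETD2 was 4.66 to 4.92 in the control and 4.54 to 4.65 in the AURKA-guide libraries, and its ratio to ASH1L was 3.26 to 3.38 and 3.08 to 3.22, so neither overlapped between groups. NSD2 made up 38.7% to 38.9% of the summed FPKM of NSD2 and the 6 H3K36 methyltransferases in the control and 37.5% to 38.3% in the AURKA-guide libraries, again without overlap. These ratios and shares were not tested. In CPM, NSD2, SETD2 and ASH1L each had overlapping groups, while 20.8% of all genes had groups that did not overlap. Most of the other ratios between paralogs overlapped between groups.

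None of the 9 H3K4 methyltransferases passed the test, and 6 were above zero. KMT2A (MLL1), which acts at HOX and other developmental genes, was at 69.7, 67.1 and 63.6 CPM in the control and at 75.8, 67.6 and 75.8 CPM in the AURKA-guide libraries. AURKA-guide replicate 2 lay within the control range (log2 fold change 0.13, SE 0.0623, adjusted p = 0.325, edgeR quasi-likelihood test). KMT2C and KMT2D, which place monomethyl marks at enhancers, had log2 fold changes of -0.00050 and 0.05. SETD1A and SETD1B, which trimethylate H3K4 at promoters, were at -0.04 and 0.04, and KMT2B was at 0.03. With a correction for GC content, SETD1A was at 0.05 and KMT2B passed the test, at 0.14 (adjusted p = 0.0373, edgeR quasi-likelihood test). KMT2E, which binds H3K4 methylation and has little methyltransferase activity of its own, was at 175 to 183 CPM in the control and 177 to 181 CPM in the AURKA-guide libraries. SETD7, which also methylates many other proteins, was at 0.02. SMYD3 was at 13.3, 14.3 and 14.6 CPM in the control and at 15.6, 14.8 and 15.01 CPM in the AURKA-guide libraries. It was higher in all 3, without passing the test (log2 fold change 0.11, adjusted p = 0.535, edgeR quasi-likelihood test). SMYD5, an H4K20 methyltransferase, was at 46.0 to 48.6 CPM in the control and 45.9 to 46.4 CPM in the AURKA-guide libraries.

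None of the 7 H3K9 methyltransferases passed the test. SETDB1, which silences repeats and zinc finger gene clusters together with TRIM28, was at 119, 120 and 122.5 CPM in the control and at 131.4, 122.96 and 124.8 CPM in the AURKA-guide libraries. All 3 AURKA-guide libraries were above the controls (log2 fold change 0.07, adjusted p = 0.518, edgeR quasi-likelihood test). EHMT1 and EHMT2, which dimethylate H3K9 in genes, had log2 fold changes of 0.0011 and -0.04. SUV39H1 and SUV39H2, the enzymes of pericentromeric H3K9 trimethylation, were at -0.05 and 0.06. SETDB2 was at 14.97, 14.1 and 16.2 CPM in the control and at 15.3, 16.8 and 16.3 CPM in the AURKA-guide libraries, which overlapped (log2 fold change 0.10). PRDM2 was at -0.05, with overlapping groups.

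Both H3K27 methyltransferases were higher in all 3 AURKA-guide libraries, and neither passed the test. EZH2 was at 95.1, 88.1 and 94.6 CPM in the control and at 95.2, 102 and 98.8 CPM in the AURKA-guide libraries, and the lowest AURKA-guide value was barely above the highest control (log2 fold change 0.09, SE 0.0542, adjusted p = 0.439, edgeR quasi-likelihood test). EZH1 was at 45.7, 47.6 and 44.3 CPM in the control and at 51.5, 47.7 and 49.0 CPM in the AURKA-guide libraries (log2 fold change 0.11, SE 0.0604, adjusted p = 0.395, edgeR quasi-likelihood test). Together they summed to 42.4 to 44.4 FPKM in the control and 45.7 to 47.4 FPKM in the AURKA-guide libraries. EZH1 and EZH2, already seen to separate in CPM, are the whole of this sum, so it is not a separate observation. In FPKM, EZH2 alone overlapped, at up to 34.7 in the control and from 34.5 in the AURKA-guide libraries. Of the other PRC2 genes, EED, SUZ12, RBBP4, RBBP7, JARID2, MTF2, PHF1 and PHF19 were tested, AEBP2 being too low. None of the 8 passed, 7 were above zero, and their median log2 fold change was 0.07. EZH2 is known to follow proliferation, and the proliferation genes stood on the same side. All 10 of MKI67, TOP2A, CCNB1, CCNA2, CDK1, PCNA, MCM2, MCM6, E2F1 and RRM2 were above zero, with a median log2 fold change of 0.13. In that list TOP2A (log2 fold change 0.31, adjusted p = 0.0081, edgeR quasi-likelihood test) and CDK1 (0.25, adjusted p = 0.0312, edgeR quasi-likelihood test) rose. Over all genes tested, 6565 of 13138 were above zero and 2.03% were called. The PRC2 and proliferation lists were chosen with earlier results of these data known, and their counts were not tested. The part of proliferation in the EZH2 values was not tested.

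DOT1L, the only H3K79 methyltransferase, was at 213, 233 and 183 CPM in the control and at 218, 185 and 195 CPM in the AURKA-guide libraries. The groups overlapped widely (log2 fold change -0.07, SE 0.0783, adjusted p = 0.689, edgeR quasi-likelihood test). Of its partners in transcription elongation, MLLT1, MLLT3, MLLT6, MLLT10, AFF1 and AFF4, none of the 6 passed the test. MLLT3 was the farthest from zero, at a log2 fold change of -0.18 (adjusted p = 0.269, edgeR quasi-likelihood test).

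None of the demethylases that act on H3K9, H3K27 or H3K36 passed the test. KDM7A, which removes methyl groups from H3K9 and H3K27, was at 20.3, 18.6 and 20.3 CPM in the control and at 21.7, 22.1 and 24.2 CPM in the AURKA-guide libraries. It was higher in all 3 (log2 fold change 0.20, SE 0.0759, adjusted p = 0.213, edgeR quasi-likelihood test). PHF2, a relative of KDM7A that acts on H3K9, was at 29.3, 27.6 and 28.1 CPM in the control and at 33.0, 29.4 and 32.5 CPM in the AURKA-guide libraries. The lowest AURKA-guide value was just above the highest control (log2 fold change 0.16, SE 0.0690, adjusted p = 0.275, edgeR quasi-likelihood test). PHF8, the remaining member of that family, was at -0.06. KDM3A and KDM3B, which remove mono- and dimethylation from H3K9, were at 0.05 and 0.0040. KDM4A, KDM4B and KDM4C, which act on trimethylated H3K9 and H3K36, were at -0.06, -0.06 and 0.0030.

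Of enzymes grouped as H3K36 demethylases, KDM2A was at 166 to 173 CPM in the control and 167 to 180 CPM in the AURKA-guide libraries. KDM2B had a log2 fold change of 0.02. KDM8, the lowest by FPKM, was at 6.001, 7.03 and 7.36 CPM in the control and at 6.18, 5.995 and 6.02 CPM in the AURKA-guide libraries. Its interval was the widest toward a decrease (log2 fold change -0.16, SE 0.117, adjusted p = 0.514, edgeR quasi-likelihood test). The H3K27 demethylases KDM6A (UTX), which is often mutated in myeloma, and KDM6B had log2 fold changes of 0.06 and -0.07 and overlapping groups. KDM6B was 1.85 to 2.52 times KDM6A in FPKM.

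The partner proteins of these enzymes gave no call either. Of 15 COMPASS partners, none passed the test and 6 were above zero. PSIP1 (LEDGF), which tethers KMT2A to chromatin, came nearest, at a log2 fold change of 0.24 (SE 0.0635, adjusted p = 0.0724, edgeR quasi-likelihood test), and MEN1, its binding partner, was at -0.16 (adjusted p = 0.254, edgeR quasi-likelihood test). Of 14 partners of KDM1 and KDM5 enzymes, none passed and 7 were above zero. RCOR2, a CoREST scaffold of KDM1A, was at -0.38 (SE 0.130, adjusted p = 0.171, edgeR quasi-likelihood test), and HDAC1 and HDAC2 were at -0.00034 and 0.06. Of 8 partners of the H3K9 methyltransferases, none passed, and ZNF644, a partner of the EHMT pair, was at 0.18 (adjusted p = 0.181, edgeR quasi-likelihood test). Of 18 other genes with a SET or JmjC domain, among them NSD3, KMT5A, KMT5B and SETD5, none passed, and their log2 fold changes ran from -0.16 to 0.12. JARID2 is in this list and in that of PRC2.

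Several enzymes varied within a group in step with base composition. The within-group SD on the log2 scale was 0.204 for KMT2D and 0.151 for DOT1L, the highest of the 44, against a median of 0.0713 for the 44 and 0.0967 for all genes tested. KMT2D was at 193, 186 and 147 CPM in the control and at 203, 156 and 187 CPM in the AURKA-guide libraries. The low values of both genes in the control group were in replicate 3, and those in the AURKA group in replicate 2. Across the 44 enzymes, the deviation of control replicate 2 from its group mean correlated with transcript GC content at r = 0.80, that of control replicate 3 at -0.72 and that of AURKA-guide replicate 1 at 0.66. Over 12811 genes the same values were 0.43, -0.45 and 0.24. AURKA-guide replicate 2, the low one for both genes, was at -0.51 across the 44 but only -0.076 over those 12811. AURKA-guide replicate 3 was at -0.34 and -0.19, and control replicate 1 at 0.098 and 0.066. These correlations run across genes of the same library, which are not independent, and are descriptions.

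With the GC trend of each library taken out, 829 genes were called (6.47%), and 3 of the 44 enzymes. KDM5B was then at -0.28 (adjusted p = 0.000407, edgeR quasi-likelihood test). PHF2 was at 0.20 (adjusted p = 0.0410, edgeR quasi-likelihood test) and KMT2B, an H3K4 methyltransferase, at 0.14 (adjusted p = 0.0373, edgeR quasi-likelihood test). The correction also turned the sign of DOT1L, from -0.07 to 0.03, and of KDM6B, from -0.07 to 0.03, among others. Without control replicate 3, 2034 genes were called (15.3%), and KDM5B was the 1 enzyme called.

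**Figure D4:**
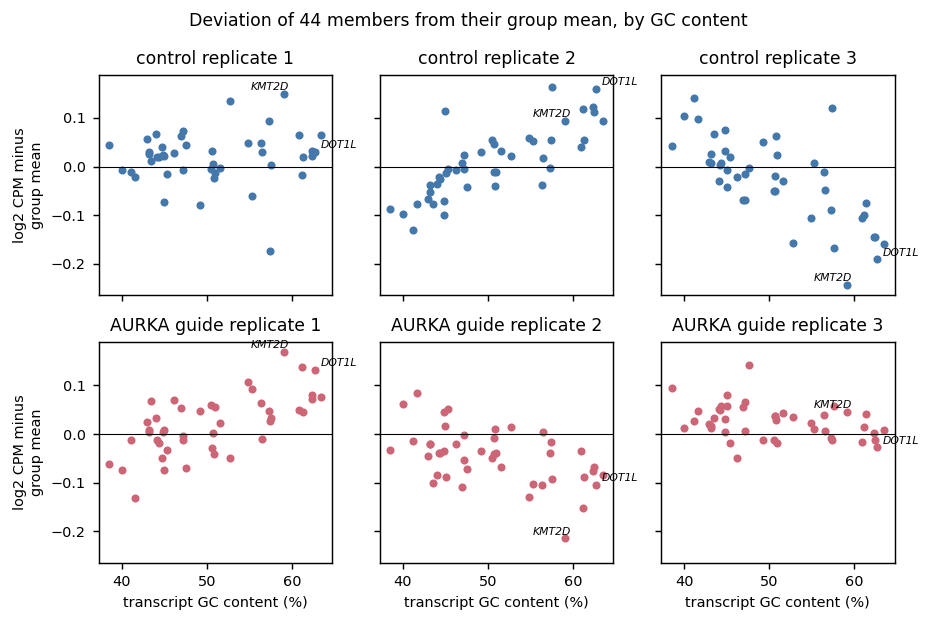
Deviation of each enzyme from its group mean (log2 CPM, vertical) against transcript GC content (percent, horizontal), 1 panel per library. The points of control replicate 2 and AURKA-guide replicate 1 slope upward, and those of control replicate 3 downward. AURKA-guide replicates 2 and 3 also slope downward.

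The transcript table listed 365 transcripts of the 44 enzymes, of which 222 passed the filter, with at least 1 for each enzyme. None of the 222 passed the edgeR quasi-likelihood test after adjustment over 43979 transcripts, of which 1 (0.00227%) passed. At an unadjusted p below 0.05, 12 of the 222 passed, 9 higher and 3 lower (5.41%, against 3.85% of all). DESeq2 called 4 of the 219 to which it gave an adjusted p (1.83%), against 891 of all 43589 (2.04%), so its calls among the enzymes are near the background. The division of reads among overlapping transcripts is an estimate, which can place all reads of a form at 0 in a library.

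SETDB1 transcript NM_001145415.1 had 477, 270 and 303 expected counts in the control and 659, 599 and 810 in the AURKA-guide libraries. It was higher in all 3, and its share of the SETDB1 counts was 15.9% in the control and 29.7% with the AURKA guide (adjusted p = 0.629 by the edgeR quasi-likelihood test and 0.00930 by DESeq2). A DOT1L transcript, XM_017027366.1, was at 0, 0 and 0.01 in the control and at 332, 229 and 213 in the AURKA-guide libraries (adjusted p = 0.296 by edgeR and 3.82e-14 by DESeq2). A KDM5C transcript, XM_011530829.2, was listed at 0 in the 3 controls and at 38.9, 165 and 111 in the AURKA-guide libraries (adjusted p = 0.432 by edgeR and 2.33e-07 by DESeq2). The DESeq2 calls also held KMT2E transcript XM_024446837.1, whose share of the KMT2E counts was 68.1% in the control and 59.2% with the AURKA guide (adjusted p = 0.844 by edgeR and 0.0393 by DESeq2). Summed over their transcripts, DOT1L, KDM5C and KMT2E had overlapping groups.

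Other, smaller forms had low p-values without a call. EZH2 transcript XM_017011821.1 had 60.5, 55.6 and 103 expected counts in the control and 170, 155 and 128 in the AURKA-guide libraries, a share of 4.33% and 8.34% of the EZH2 counts. SMYD5 transcript XM_006711918.4 had 56.8, 21.9 and 21.9 in the control and 96.5, 161 and 72.2 in the AURKA-guide libraries. For KDM5B, the main transcript XM_011509091.2 had 772, 804 and 676 expected counts in the control and 651, 709 and 667 in the AURKA-guide libraries, which overlapped. Its share of the KDM5B counts was 76.3% and 80.8%.

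**Figure D5:**
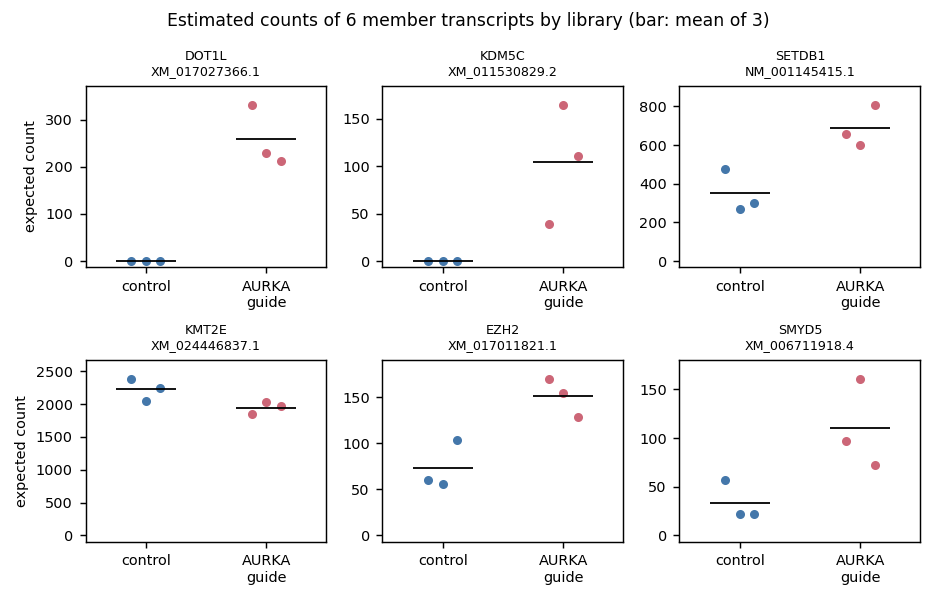
Expected counts per library (points; bar is the mean of 3) of 6 transcripts of the enzymes, in control and AURKA-guide libraries, each panel with its own axis. The DOT1L and KDM5C forms lie at or near 0 in all 3 controls, and the KMT2E form is lower with the AURKA guide.

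The authors' deposited table of gene comparisons listed 229 genes for the AURKA guide, and none of the 44 enzymes was among them. The deposited gene table held 17579 genes, so a list of 229 would hold few or none of any 44 genes by share alone. The authors' deposited table of transcript comparisons held 361 transcripts of the enzymes, and 346 of these had a q-value for the AURKA guide. Of the 346 in the authors' deposited table, 14 were below 0.05 (4.05%), against 1.55% of all its transcripts with a q-value. Of these 14 in the authors' deposited table, 13 were listed at 0 in at least 1 library, 10 at 0 in a whole group, and 11 had at least 1 read in only 1 library. The same deposited table of the authors compares an NSD2 guide, whose libraries are not analysed here, with the same controls, and there 8 of 338 transcripts of the enzymes had a q-value below 0.05 (2.37%, against 1.78% of all). For SETDB1 NM_001145415.1, the authors' deposited table gives a log2 fold change of 0.97 (q = 0.00384) for the AURKA guide and 0.78 (q = 0.175) for the NSD2 guide. For KDM5B XM_011509091.2 the authors' deposited table gives -0.17 for the AURKA guide and -0.25 for the NSD2 guide. Both comparisons share the control libraries, so the values are side by side only.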

How the data were processed

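RNA-seq libraries of LP-1 cells followed the BGISEQ-500 protocol according to the labels' protocols, 3 with the AURKA guide and 3 with the guide without a target. BWA, Bowtie2, RSEM and hg19 are named in the submitters' processing notes; the sources used here give neither their roles and versions nor whether the libraries kept strand. The deposited expected counts per gene and per transcript are estimates, and 44.8% of those per gene were not whole numbers. FPKM and TPM values stand beside them, per the file headers, and the deposited TPM values were not used. Per the file headers, the authors' deposited comparisons hold log2 fold changes, p-values and q-values from DESeq2.

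Rounded expected counts went into edgeR 4.0.16 under R 4.3.3 (filterByExpr, TMM, quasi-likelihood F test, Benjamini-Hochberg adjustment over all genes or transcripts tested, threshold 0.05). CPM uses the TMM-scaled library size, except in the marker sums, which use the library total. The script was tested on simulated data. Standard errors come from the F statistic. Alternatives were DESeq2 1.42.0, limma 3.58.1 on log2 FPKM (pseudocounts 1 and 0.1, at least 0.5 FPKM in 3 libraries), other scalings and filters, a replicate block, a correction for transcript GC content (a spline with 5 degrees of freedom on the longest coding transcript in GENCODE, with a value for all 44 enzymes), and each library left out. Replicates of a group differed by more than counting noise. Promoters came from RefSeq and were matched by gene ID. The enzymes, the lists and the rule for named genes were chosen with earlier results of these data known. Every enzyme is accounted for, and values per library are given for the 8 smallest p-values, the non-overlapping groups and the 3 highest and 3 lowest FPKM means, with others added after their values were seen.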

Additional observations from a re-analysis of the deposited data

How the results depend on the processing

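Over every alternative run, the median log2 fold change ran from -0.0075 to 0.039 for the 44 enzymes, from -0.0049 to 0.050 for the methyltransferases and from -0.015 to 0.013 for the demethylases, so its sign is not fixed. Of 439 single-enzyme values outside the leave-one-out fits, 400 kept their direction and their side of the threshold. The number of genes called, 267, became 829 with the GC correction, 895 with the GC correction and replicate block, 36 with a minimum absolute log2 fold change of 1, and 98 to 2034 with 1 library left out. The 1 enzyme called became 0 with library sizes without TMM and 0 with limma on log2(FPKM + 1) or log2(FPKM + 0.1). It became 3 with the GC correction, with and without the replicate block, and 0 to 1 with 1 library left out. Transcripts of the enzymes called went from 0 to 4 with DESeq2. The cause of these shifts was not tested. With the replicate number as a block, 385 genes were called and the adjusted p of KDM5B was 0.0287 (edgeR quasi-likelihood test). No clear sign of pairing by number was seen. Same-numbered libraries correlated at 0.041, -0.10 and 0.19 in their deviations, and control replicate 2 correlated most with AURKA-guide replicate 1 (0.28). The deviations also carry the GC trend of each library, so they cannot tell whether same-numbered libraries were prepared together. Signs turned for enzymes near zero and for some farther from it, such as DOT1L, KDM6B and KMT2D, and the cause was not tested. EHMT1 was at -0.00058 with DESeq2 size factors, -0.00059 with DESeq2, -0.057 with limma on log2(FPKM + 1) and -0.061 on log2(FPKM + 0.1). KMT2C was at 0.0049 without TMM, 0.012 and 0.015 with limma, and KMT2E at 0.0023, 0.027 and 0.028. With the GC correction, and with the GC correction and replicate block, SETD2 was at -0.0054 and -0.0051, SMYD5 at 0.0039 and 0.0038, SETD1A at 0.053 and 0.052, SETD7 at -0.020 and -0.020, EHMT2 at 0.048 and 0.048, SUV39H1 at 0.0075 and 0.0078, DOT1L at 0.028 and 0.028, KDM1B at -0.043 and -0.045, KDM4B at 0.023 and 0.021, KDM4C at -0.017 and -0.017, and KDM6B at 0.028 and 0.028. With 1 library left out, signs turned within these ranges: KMT2C -0.041 to 0.043, KMT2E -0.019 to 0.011, KDM1B -0.035 to 0.069, KDM2B -0.025 to 0.074, KDM4C -0.0079 to 0.016, PHF8 -0.14 to 0.0066, SETD1A -0.11 to 0.021, SUV39H1 -0.13 to 0.037, DOT1L -0.16 to 0.012, KDM3B -0.015 to 0.018, NSD1 -0.012 to 0.062, KMT2B -0.044 to 0.083, KMT2D -0.062 to 0.15, EHMT1 -0.046 to 0.047, KDM5C -0.096 to 0.021, KDM4B -0.14 to 0.0099, and SETD7 -0.0090 to 0.036. KDM8, the enzyme with the fewest counts, had the highest standard error of the 44 (0.117).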
